A study of Homo sapiens with 2 samples.

Results

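Core hnRNP genes encode the abundant nuclear proteins that package nascent transcripts. Of the 10 genes described here, HNRNPA2B1, HNRNPM, HNRNPA1, HNRNPD, HNRNPDL, HNRNPK and HNRNPU held at least 1 SF3B1 HITS-CLIP interval, and HNRNPC, HNRNPL and HNRNPF held none. The 10 genes were listed by name, with HNRNPH1 left out. An interval belonged to a gene if the deposited list gave that gene's number and the midpoint of the interval lay inside the gene's RefSeq span. Repeated rows of 1 position and strand were merged into 1 interval. This gave 10 intervals in 7 genes, out of 1406 distinct intervals in 1587 rows. All 10 genes matched the RefSeq gene table of GRCh38.p14, and all positions are on hg38.

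HITS-CLIP recovers short RNA tags that ultraviolet light has crosslinked to a protein, here from MDA-231-LM2, a lung-metastatic derivative of the breast cancer line MDA-MB-231. The 2 libraries were biological duplicates of 1 group with no treatment named in the labels, and no control or input sample was used here. The antibody label, title and design name SF3B1 as the target, while the extraction protocol names SNRBP2; SF3B1 is used below. The authors pooled both libraries before peaks were listed, so no value has a replicate error, the tags per library are unknown, and transcript level and binding cannot be told apart.

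SF3B1 is a subunit of the U2 snRNP, which recognises the branch site upstream of the 3′ splice site of introns. The hnRNPs bind pre-mRNA at short motifs and, together with SR proteins, influence which splice sites are used. Transcripts of many splicing regulators, hnRNPs among them, carry alternatively spliced segments through which their own protein level is adjusted. No exon annotation or genome sequence was used here, so the intervals were placed within gene spans only and their bases are not shown.

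An interval lay in 7 of the 10 genes, against 1057 of 20052 protein-coding genes, a background of 5.27%. Among the 10708 protein-coding genes whose span lay within the members' range of 6362 to 60296 nt, the background was 5.06%. Neither background was limited to genes expressed in these cells, as expression was not measured here. HNRNPA2B1, HNRNPA1 and HNRNPU held 2 intervals each and the other 4 held 1; 0.928% of protein-coding genes held at least 2. Of the 10 genes, 7 had an interval above the list's median of 7 tags, compared with 485 of 20052 protein-coding genes (2.42%). Among genes that held an interval, these were all 7 members and 485 of the 1057 protein-coding genes. The genes were chosen with earlier results of these data known, so these counts are descriptions without a test.

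The A/B group proteins bind RNA through paired RRM domains and a glycine-rich tail, and act as splicing repressors at many exons. HNRNPA2B1 held the tallest interval of the set, with 27 tags at chr7:26191129-26191198 on the minus strand. The counting interval was 17.8 to 39.3 tags (exact Poisson 95% interval, counting error only). It was 70 nt wide, whereas 8 of the 10 intervals were 42 or 43 nt wide; only 1.92% of all intervals in the list were at least as wide. Its neighbour, chr7:26190458-26190500, reached 14 tags and lay 684 nt away by midpoint, towards the gene end. These were the closest neighbours among the genes with more than 1 interval.

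HNRNPA1, the closest relative of HNRNPA2B1 in the set, also held a taller and a lower interval. They lay on the plus strand, and reached 17 tags at chr12:54284512-54284554 and 12 tags at chr12:54286615-54286657, with midpoints 2103 nt apart. In both genes the interval nearer the gene end was the lower one, and in both its counting interval overlapped that of its neighbour (6.2 to 21.0 against 9.9 to 27.2 tags in HNRNPA1, 7.7 to 23.5 against 17.8 to 39.3 in HNRNPA2B1).

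HNRNPM, whose protein binds GU-rich RNA and regulates alternative exons, had 1 interval of 20 tags at chr19:8463784-8463825 on the plus strand. It was the second tallest of the set, in the longest gene that held one (44140 nt). HNRNPD, also known as AUF1, encodes a protein best known for binding AU-rich elements of unstable mRNAs. It held 1 interval of 19 tags at chr4:82354162-82354204 on the minus strand. HNRNPDL, the paralogue of HNRNPD on the same chromosome, held 1 of 12 tags at chr4:82425675-82425726, also on the minus strand. At 52 nt, this was the only other interval of the set wider than 43 nt.

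HNRNPU encodes scaffold attachment factor A, a chromatin-associated protein that binds RNA and DNA. It held 2 intervals of 12 tags each on the minus strand, at chr1:244858981-244859023 and chr1:244854216-244854257, with midpoints 4765 nt apart. The second touched the snoRNA gene SNORA100, an annotated gene inside HNRNPU at chr1:244854087-244854217, by 2 nt. Its midpoint lay outside the snoRNA gene, and tags of the 2 transcripts were not separated. No other interval of the set touched a second annotated gene. The deposited list gave HNRNPU a further interval of 8 tags, at chr1:244846696-244846733. It lay 3564 nt beyond the RefSeq gene end and inside no RefSeq gene, and is left out of the counts. Its deposited p-value of 4.94e-02 was close to the largest in the list (0.0499).

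HNRNPK, a KH-domain protein that binds C-rich RNA and DNA, held the lowest interval, 9 tags at chr9:83978436-83978478 on the minus strand. The gene also hosts MIR7-1, a miR-7 hairpin, at chr9:83969748-83969857. No interval touched the hairpin, and the interval in HNRNPK began 8579 nt from it.

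HNRNPC, HNRNPL and HNRNPF had no interval in the list, and no interval listed under another gene touched their spans. The HNRNPC protein binds uridine tracts and forms the tetramers of the core hnRNP particle, the HNRNPL protein binds CA repeats, and the HNRNPF protein, a relative of HNRNPH1, binds G tracts. HNRNPC is the longest gene of the set, with a span of 60296 nt; HNRNPF spans 23569 nt and HNRNPL 15978 nt. The list holds significant peaks only and gives no expected height for these genes, so a height below the list's threshold cannot be told apart from no tags.

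Pseudogene copies differ widely in number between the members. The file name says that unique tags were used, without saying whether this refers to tags that match 1 place in the genome or to copies made by PCR. By symbol, HNRNPA1 has 75 annotated pseudogenes, HNRNPC 9, HNRNPDL and HNRNPK 5 each, HNRNPM, HNRNPD and HNRNPL 2 each, HNRNPF and HNRNPU 1 each and HNRNPA2B1 0. No interval touched any of these 102 pseudogenes. HNRNPA1, with the most copies, held 2 intervals. HNRNPC, with the second most, held none, and neither did HNRNPL and HNRNPF. The effect of the copies on the heights was not tested.

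**Figure D1:**
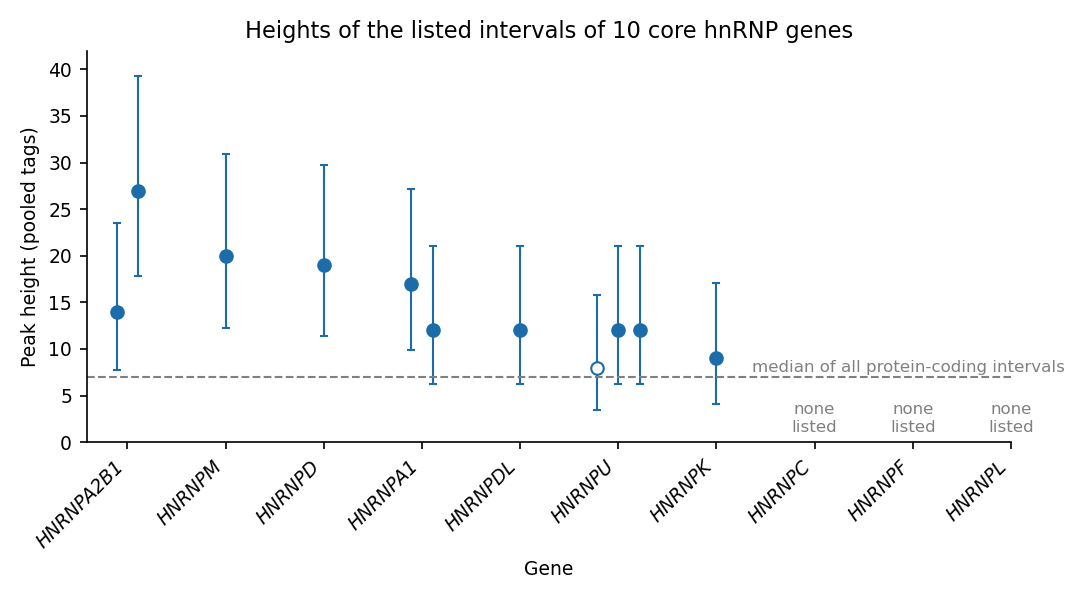
Peak height in pooled tags (y axis) of every interval the deposited list gives for the 10 core hnRNP genes (x axis, ordered by the highest interval). Points are intervals, bars are exact Poisson 95% intervals for counting error only, the open point is the HNRNPU interval beyond the gene end, and the dashed line is the median of all protein-coding intervals; the 10 filled points lie between 9 and 27 tags, all above the line at 7.

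In order, the 10 heights were 27, 20, 19, 17 and 14 tags, then 12 in each of 4 intervals and 9 in HNRNPK. For all 9 pairs of neighbours in this order, the counting intervals overlapped, so that order is not fixed by these counts. The extremes were just apart, with a lower bound of 17.8 for the highest HNRNPA2B1 interval and an upper bound of 17.1 for the HNRNPK interval. A height is the top of a peak that had passed a significance filter, which these bounds do not take into account.

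All 10 heights exceeded the median of 7 tags over the 1306 distinct intervals in protein-coding genes, whose quartiles were 6 and 10. The members' median was 13 tags, and 9 of the 10 intervals (90.0%) reached 10 tags, against 30.4% of protein-coding intervals. The highest HNRNPA2B1 interval was equalled or exceeded by 43 of the 1306 (3.29%), the HNRNPM interval by 6.66%, the HNRNPD interval by 7.81% and the HNRNPK interval by 37.4%.

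The members also had high expected heights, a value that the deposited list gives once for each gene. Over the 1057 protein-coding genes with an interval its median was 0.04 tags, with quartiles of 0.02 and 0.09. It was 1.0 for HNRNPA2B1 (rank 14 of 1057), 0.93 for HNRNPA1 (rank 16) and 0.54 for HNRNPDL (rank 37). HNRNPK and HNRNPU shared a value of 0.29 (rank 75). HNRNPD had 0.14 (rank 159) and HNRNPM 0.08 (rank 277), the only member below the upper quartile.

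The lowest height that the list holds moved with this expected height. In other protein-coding genes with an expected height above 0 and up to 0.05, the 697 intervals had a minimum of 4 and a median of 6 tags. At expected heights above 0.8 and up to 1.2, the 17 intervals had a minimum of 11 and a median of 15 tags. A height of 12 in HNRNPA1 was therefore near the least listed for such genes, and the part of this in the members' tall intervals was not tested.

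Set against intervals of other protein-coding genes whose expected height was within 1.5 times the member's, 3 of the 10 intervals were above the median, 3 were at it and 4 were below. Within 2 times, 6 were above and 4 below. This comparison was chosen after the heights had been seen. The HNRNPM interval stood highest: 11 of 290 such intervals (3.79%) reached its 20 tags, with a median of 8. For HNRNPD, 18 of 187 (9.63%) reached 19 tags, with a median of 9. For the highest interval of HNRNPA2B1, 6 of 28 (21.4%) reached 27 tags, with a median of 16.

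The other intervals were ordinary or low by this measure. The higher interval of HNRNPA1 equalled the median of 17 tags and both of HNRNPU the median of 12. The lower interval of HNRNPA2B1 had 14 tags against a median of 16, that of HNRNPA1 12 against 17, HNRNPDL 12 against 13 and HNRNPK 9 against 12. The interval in HNRNPK was equalled or exceeded by 89.8% of its 108 counterparts.

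As a ratio, the heights were 250.0 times the expected height in HNRNPM, 136.0 times in HNRNPD and 41.4 times in both HNRNPU intervals. The ratio was 31.0 in HNRNPK, 27.0 and 14.0 in HNRNPA2B1, 22.2 in HNRNPDL, and 18.3 and 12.9 in HNRNPA1. The order by ratio thus differed from the order by height, with HNRNPM and HNRNPD ahead of HNRNPA2B1. The members' median ratio was 29.0, against 167.0 over protein-coding intervals, where genes of low expected height dominate. The protein-coding median left out intervals whose listed expected height was not above 0. Expected heights are listed as rounded values such as 0.01 and 0.02, so ratios at low expected heights are coarse.

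The deposited p-values are the authors' own. HNRNPM carried 1.00e-100, the smallest value of the list, which 269 distinct intervals (19.1%) share. The values were 4.05e-10 for the highest interval of HNRNPA2B1, 1.54e-09 for HNRNPD and 1.08e-08 for the higher interval of HNRNPA1. Both HNRNPU intervals had 4.72e-08. The weakest interval inside a member by this value was the lower one of HNRNPA1, at 8.05e-03.

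**Figure D2:**
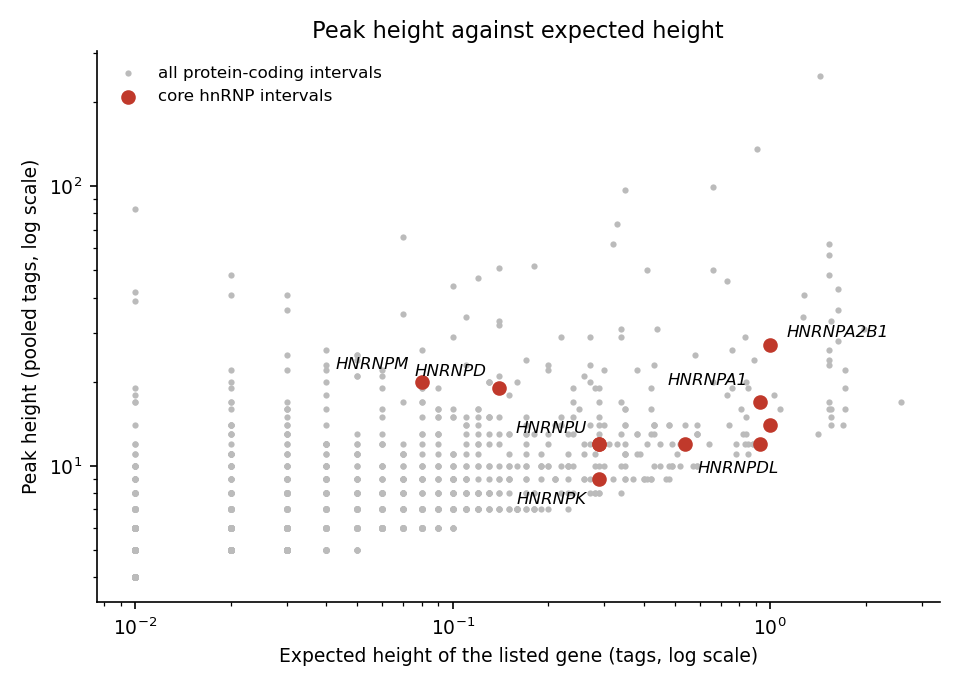
Peak height in pooled tags (y axis, log scale) against the deposited expected height of the listed gene (x axis, log scale) for all protein-coding intervals with an expected height above 0 (grey) and the core hnRNP intervals (red, 1 label a gene at its higher interval). The lower edge of the grey points climbs from left to right; HNRNPM (20 tags at 0.08) and HNRNPD (19 tags at 0.14) lie in the upper part of the points around them, and HNRNPK (9 tags at 0.29) near the lower edge.

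Along the genes, 7 of the 10 intervals (70.0%) had midpoints beyond 50% of the span, counted from the gene start, close to the 67.0% of all protein-coding intervals, and the median position was 66.3% of the span in both. The intervals of HNRNPA2B1 lay at 88.6% and 94.9% of its span of 10820 nt. The interval of HNRNPD lay at 92.2% of 21494 nt and those of HNRNPA1 at 59.8% and 92.9% of 6362 nt. HNRNPDL, the paralogue of HNRNPD, had its interval at 60.3% of 7899 nt. Before the midpoint of the gene lay 1 interval of HNRNPU, at 38.9% (the other was at 72.3%), that of HNRNPM, at 42.7%, and that of HNRNPK, at 17.2%.

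Near the gene end, the lower intervals of HNRNPA1 and HNRNPA2B1 had midpoints 451 and 552 nt from it, the higher one of HNRNPA2B1 1236 nt and that of HNRNPD 1685 nt. The last 2 kb thus held 4 of the 10 intervals (40.0%), compared with 10.7% of all protein-coding intervals. It held 12.3% of those in genes of like span (6362 to 60296 nt) and 5 of 17 (29.4%) in SR protein genes. The 4 intervals lay in genes of 6362, 10820 and 21494 nt, in the lower part of that range. The part of a span that 2 kb covers was not matched. The members' median span was 15112 nt, against 24097 nt for all protein-coding genes. No interval fell in a promoter window, from 250 bases before to 50 after a RefSeq gene start, which was listed for 9 of the 10 genes. All 6 genes with both an interval and a window had their intervals on the gene's own strand. The list had already assigned these intervals to the genes, so this bears only on the gene direction used for positions.

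**Figure D3:**
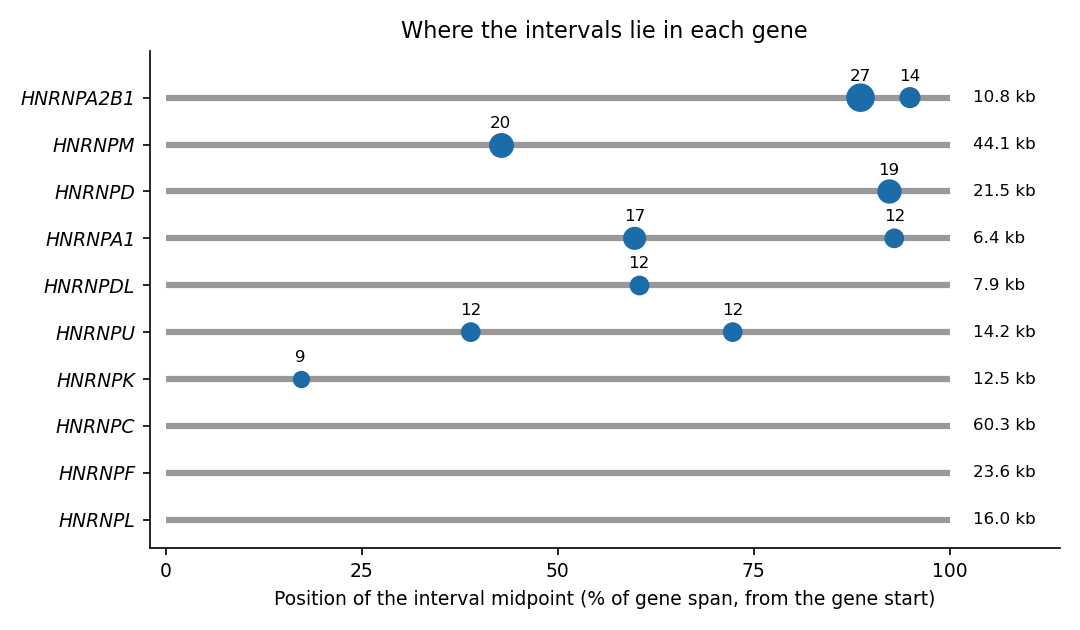
Position of each interval midpoint as a percent of the gene span from the gene start (x axis) in the 10 core hnRNP genes (rows, each drawn to the same length with its span in kb at the right). Point area and the number above it give the height in tags; HNRNPA2B1, HNRNPD and HNRNPA1 have points in the last stretch of the span, HNRNPK at 17.2%, and the lower 3 genes have none.

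The rest of the family was read from a list of 36 other hnRNP and hnRNP-like genes. Of these, 16 held an interval, against 1057 of 20052 protein-coding genes (5.27%). HNRNPH1 held 8 intervals of 16 to 62 tags and HNRNPH3, its relative, 2 of 16 and 9. Without HNRNPH1, the other 15 genes held 20 intervals with a median of 9.5 tags and a range of 6 to 16. HNRNPA2B1, HNRNPM, HNRNPD and HNRNPA1 each held an interval above the highest of those 15 genes, with 27, 20, 19 and 17 tags against 16. Only for HNRNPA2B1 did the counting interval lie above 16, with lower bounds of 17.8, 12.2, 11.4 and 9.9 tags in the same order. Relative to the expected height the order was the reverse, with a median ratio of 88.8 in those 15 genes against 29.0 in the members, whose median expected heights were 0.11 and 0.29. The poly(C)-binding protein genes PCBP2 (13 and 15 tags) and PCBP3 (10 and 6) were listed, as were DAZAP1 (15), RBM4 (13) and CIRBP, a cold-inducible RNA-binding protein (13).

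HNRNPUL2 held 2 intervals of up to 10 tags and HNRNPUL1 1 of 6, both relatives of HNRNPU. TIAL1 and TIA1, which bind U-rich RNA near 5′ splice sites, held 10 and 9 tags, HNRNPAB and MATR3 8 each, EWSR1 7 in both of its intervals and SYNCRIP 6. With none were HNRNPH2, HNRNPA0, HNRNPA3, HNRNPR, HNRNPLL, HNRNPCL1, PCBP1, PCBP4, PTBP1, PTBP2, PTBP3, RALY, RALYL, TARDBP, RBMX, KHDRBS1, KHSRP, ELAVL1, TAF15 and CELF1. HNRNPCL1 and RALY, relatives of HNRNPC, and HNRNPLL, a relative of HNRNPL, were without an interval, as those members were. The relatives of HNRNPF differed: HNRNPH1 and HNRNPH3 held intervals and HNRNPH2 held none. HNRNPA3, a relative of HNRNPA2B1, lacked an interval while that member held some. Among all protein-coding genes only 5.27% held an interval, so a relative without one is the common case. None of the 28 intervals in this list lay within 2 kb of the gene end, though 1 of HNRNPH1, at 90.1% of 20607 nt, lay only a little further away. The median span was 28580 nt in this list and 15112 nt in the members, and the part of a span that 2 kb covers was not matched.

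**Figure D4:**
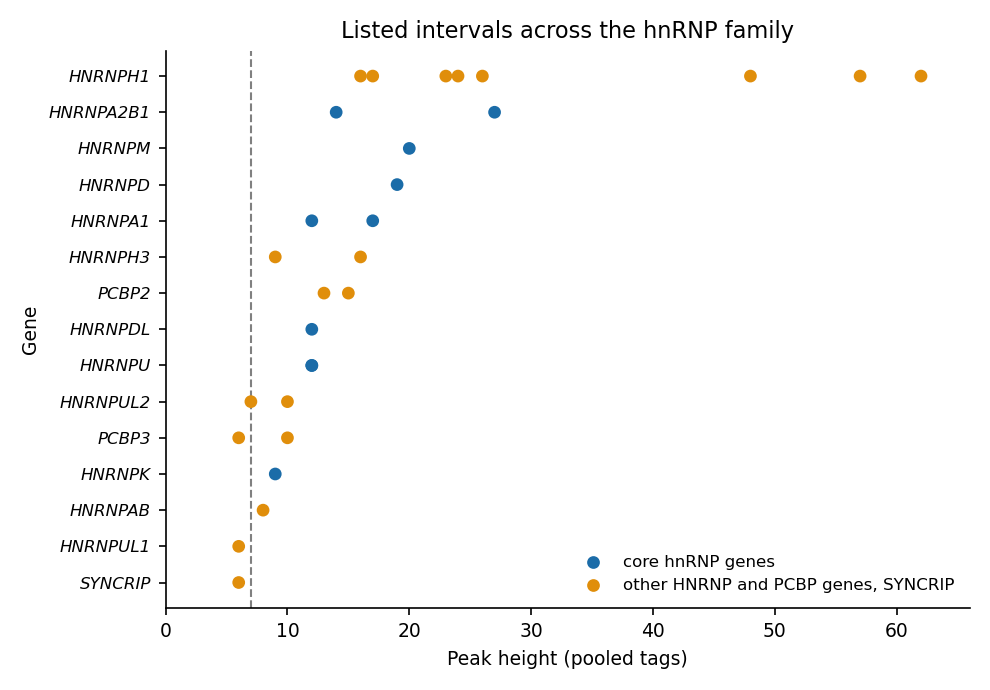
Height in pooled tags (x axis) of every interval in the core hnRNP genes (blue) and in the other genes named HNRNP or PCBP and SYNCRIP (hnRNP Q) that held one (orange), 1 row a gene; equal heights within a gene overlap, and the dashed line is the median of all protein-coding intervals. HNRNPH1 reaches 62 tags, HNRNPA2B1 follows with 27, and SYNCRIP and HNRNPUL1 end the order at 6.

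Other splicing factors are given for scale. Of 14 SR protein genes, 9 held 17 intervals with a median of 11 tags and a maximum of 46. Of 30 core spliceosome protein genes, DHX15 and DHX38 held 1 interval each, of 6 and 7 tags. The share of all protein-coding genes with an interval was 5.27%. Expected heights are listed only for genes with an interval. Their median was 0.29 for the members, 0.15 for the 9 SR genes and 0.06 for DHX15 and DHX38. The differences between these lists were not tested.

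Outside these lists, 125 protein-coding genes held 2 intervals, and those nearest to HNRNPA2B1 in summed height (41 tags) included DDX5 and RBM5. DDX5, an RNA helicase with roles in splicing, had 29 and 12 tags, 527 nt apart, at an expected height of 0.83. RBM5, a splicing regulator, had 29 and 10 tags, with midpoints 229 nt apart, at an expected height of 0.22.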

How the data were processed

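The authors deposited 1 peak list from the pooled tags of both libraries. The submitters' processing notes name cutadapt 2.3, BWA 0.7.17 and hg38. Caller, significance threshold and gene models are not given in the sources used here. As signal, the deposited list holds peak heights in pooled tags without normalization. The text field of each row adds a gene number, an expected height and a p-value. Genes were named through RefSeq (GRCh38.p14), gene direction was taken from the strand of the interval, and positions are 1-based. Nothing was fitted or tested; counts and medians are set beside those of all protein-coding genes. Assignment was checked on 300 intervals placed inside known genes. The members and lists were chosen with earlier results of these data known; the rule named all members, all listed genes and the 3 genes nearest to the member with the highest interval, some of which are not reported here. Exon classes, splice site distances and motifs were not analysed here, although planned. Python 3.11.15, pandas 2.3.3, numpy 2.4.6, scipy 1.17.1 and matplotlib 3.10.9 were used.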

Additional observations from a re-analysis of the deposited data

How the results depend on the processing

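Across the alternatives run, the members with an interval numbered 6 or 7 and their intervals 9 to 11, with a median height of 12 to 17 tags. The 9 intervals and 6 members came from a minimum of 10 tags, which removes HNRNPK, and the 11 from gene numbers as listed. With that minimum, 10 of the other hnRNP genes held an interval and 320 protein-coding genes; above the median height, 485 protein-coding genes did, and among genes of like span 542. Intervals above the median of intervals of like expected height numbered 6 with a window of 2 times and 10 with no window. The alternatives on span and expected height, and the removal of the interval at SNORA100 (9 intervals, median 14), were chosen after seeing the data. Exon and splice site alternatives were not run. Leaving out a library was not possible because the list is pooled. No paired analysis was possible because there is 1 group. Depth per library is unknown, and neither binding nor transcript level can be read from a gene without an interval.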
